A study of Mus musculus with 4 samples.

Results

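Hox genes encode transcription factors that specify position along the head-to-tail axis of the embryo. In the mouse they lie in 4 clusters, Hoxa on chromosome 6, Hoxb on chromosome 11, Hoxc on chromosome 15 and Hoxd on chromosome 2. Within a cluster all Hox genes are transcribed in the same direction and carry numbers from 1 at the 3′ end to 13 at the 5′ end, and genes of the same number in different clusters are called paralogues. Low-numbered genes are switched on early and act towards the head, high-numbered genes are switched on later and act towards the tail and in the distal limb. Adult fibroblasts are known to keep a Hox pattern that reflects the site of the body from which they came.

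The members described here are the protein-coding transcripts whose gene symbol is Hoxa, Hoxb, Hoxc or Hoxd followed by a number. They made up 30 of the 34200 transcripts of the deposited table and came from 20 of the 39 Hox genes in the GENCODE M21 annotation of GRCm38. A gene is said to be detected when at least 1 of its protein-coding transcripts has a row with a mean. By the same rule, 14769 of 21951 annotated protein-coding genes were detected (67.3%), against 51.3% of the Hox genes.

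RNA-seq was done on polyadenylated RNA of NIH/3T3 cells, an immortalised line of mouse embryonic fibroblasts. In the KD group (n = 2 libraries) cells were co-transfected with a pair of siRNAs against *Setd2*, which encodes the methyltransferase that deposits H3K36me3 along transcribed genes. In the WT group (n = 2 libraries) cells received a non-targeting Scrambled siRNA. Both groups were of the same genotype, received siRNA at 10 nM with the same lipid reagent and were lysed after 48 h. The labels do not tie libraries to passages of the line, so the spread between libraries may be partly technical. The values used are means over all 4 libraries. Levels of single libraries were not analysed here, and no comparison of KD with WT is made. Nor could the level of *Setd2* be set against the labels of each library.

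A level is given in normalised estimated counts, that is, the number of reads assigned to a transcript after scaling for library size. Levels were summed over the transcripts of a gene. Where levels of single genes are compared with each other, each transcript was first divided by its length (level per kb). Shares of a summed level are of counts not divided by length, unless stated. The error is the standard deviation (SD) over the 4 libraries on the log2 scale, taken from the transcript with the highest level of a gene. It holds the spread within KD and WT and any difference between them. The number of reads per library is unknown, so no interval for counting error is given.

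Cells of the line carried the transcripts of fibroblasts. All 8 fibroblast markers were detected, from 570 per kb for *Pdgfrb* to 68589 per kb for *Vim*, which encodes vimentin. Of the epithelial markers, *Epcam* and *Krt18* had no row, *Cdh1* stood at 25.4 per kb and *Krt8* at 11.5 per kb. The endothelial genes *Cdh5* and *Pecam1* stood at 7.73 and 9.24 per kb. Of the blood markers, the leukocyte gene *Ptprc* stood at 6.40 per kb and the lysosomal gene *Cd68* at 287 per kb. Of the neural markers, *Tubb3* stood at 1.62 per kb and *Sox2* had no row.

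The feature that all Hox proteins share is the homeodomain, whose recognition helix lies in the major groove of DNA. The DNA that encodes a part of that helix (10 codons) is given for *Hoxa7*, *Hoxa5*, *Hoxb6* and *Hoxd8*, which include the highest genes of Hoxa, Hoxb and Hoxd. It is also given for 3 undetected paralogues of numbers 7 and 8, *Hoxb7*, *Hoxb8* and *Hoxc8*. The stretch was chosen by a conserved motif, so it shows how alike the genes are there and not over whole transcripts. Sequences are from GENCODE M21 transcripts, 5′ to 3′ on the coding strand, with genome positions in GRCm38, and capitals mark the positions at which the 7 sequences differ.
Hoxa7 (chr6:52215858-52215887, minus strand): aaGatCtggttCcaGaaTCgGCgCatgaaG
Hoxa5 (chr6:52202647-52202676, minus strand): aaAatCtggttCcaAaaCAgGAgGatgaaG
Hoxb6 (chr11:96300824-96300853, plus strand): aaGatTtggttTcaGaaCCgGCgCatgaaG
Hoxd8 (chr2:74706660-74706689, plus strand): aaAatCtggttCcaGaaCAgGAgAatgaaA
Hoxb7 (chr11:96289520-96289549, plus strand): aaGatCtggttTcaGaaCCgGCgCatgaaG
Hoxb8 (chr11:96284309-96284338, plus strand): aaAatCtggttCcaGaaTCgGAgAatgaaG
Hoxc8 (chr15:102992706-102992735, plus strand): aaGatTtggttCcaGaaTCgAAgGatgaaG

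Of the 30 bases, 20 were the same in all 7 sequences. *Hoxa7* differed from its undetected paralogue *Hoxb7* at 2 bases, and *Hoxb6* differed from its undetected neighbour *Hoxb7* at 1 base. *Hoxd8* differed from its undetected paralogues *Hoxb8* and *Hoxc8* at 3 and 7 bases. Over all 39 genes, pairs of the same number differed at a median of 4 bases (range 0 to 8, 42 pairs) and pairs of the same cluster at a median of 5 bases (range 0 to 10, 172 pairs). In 4 pairs the stretch was identical. Of the 30 Hox transcripts, 23 had more than 95% of their 31-base words in no other gene on the same strand. Here and below, words were compared only with transcripts that the annotation tags as basic. Sharing with other annotated transcripts was not examined.

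Detection differed with the number of the gene within its cluster. Of the 8 anterior genes (numbers 1 to 3), 6 were detected, and of the 15 central genes (numbers 4 to 8), 12 were detected. Of the 16 posterior genes (numbers 9 to 13), 2 were detected, *Hoxc9* and *Hoxd9*. None of the 12 genes with numbers 10 to 13 had a row, whereas all 10 genes with numbers 4 to 6 had one. Central genes held 77.6% of the summed level of all Hox genes, anterior genes 18.9% and posterior genes 3.44%.

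**Figure D1:**
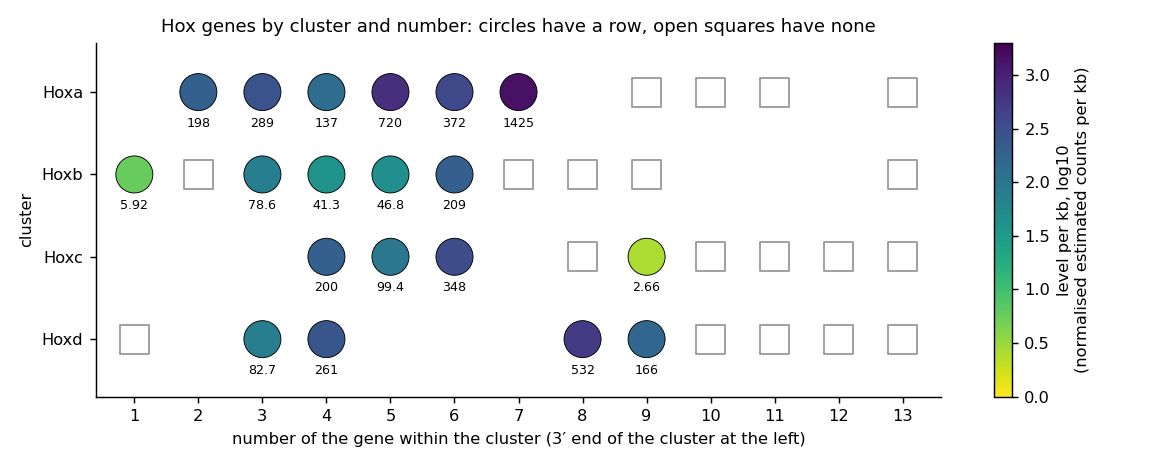
Hox genes by cluster (y axis) and by number within the cluster (x axis). Circles are detected genes, shaded by the log10 of the level per kb and labelled with the level per kb, open squares are annotated genes with no row, and an empty place holds no gene or none reported here. Detected genes fill numbers 4 to 6 in every cluster that has them, and numbers 10 to 13 hold open squares only.

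In each cluster there was a last detected gene, and 4 genes lay beyond it. Distances are given along the cluster from the start codon of gene 13, which all 4 clusters have. In Hoxa the last detected gene was *Hoxa7*, 43.4 kb from *Hoxa13*. In Hoxb it was *Hoxb6*, 105 kb from *Hoxb13*, with *Hoxb2* missing before it. In Hoxc it was *Hoxc9*, 60.5 kb from *Hoxc13*, with *Hoxc8* missing before it. In Hoxd it was *Hoxd9*, 29.7 kb from *Hoxd13*, with *Hoxd1* missing before it. The next gene, which had no row, lay at 34.7 kb in Hoxa (*Hoxa9*), 92.3 kb in Hoxb (*Hoxb7*), 45.7 kb in Hoxc (*Hoxc10*) and 23.7 kb in Hoxd (*Hoxd10*). In Hoxc the position rests on *Hoxc9*, whose level was 6.32 counts with an SD of 1.28 (n = 4). With a limit of 10 counts the last gene of Hoxc would be *Hoxc6*, at 88.4 kb.

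**Figure D2:**
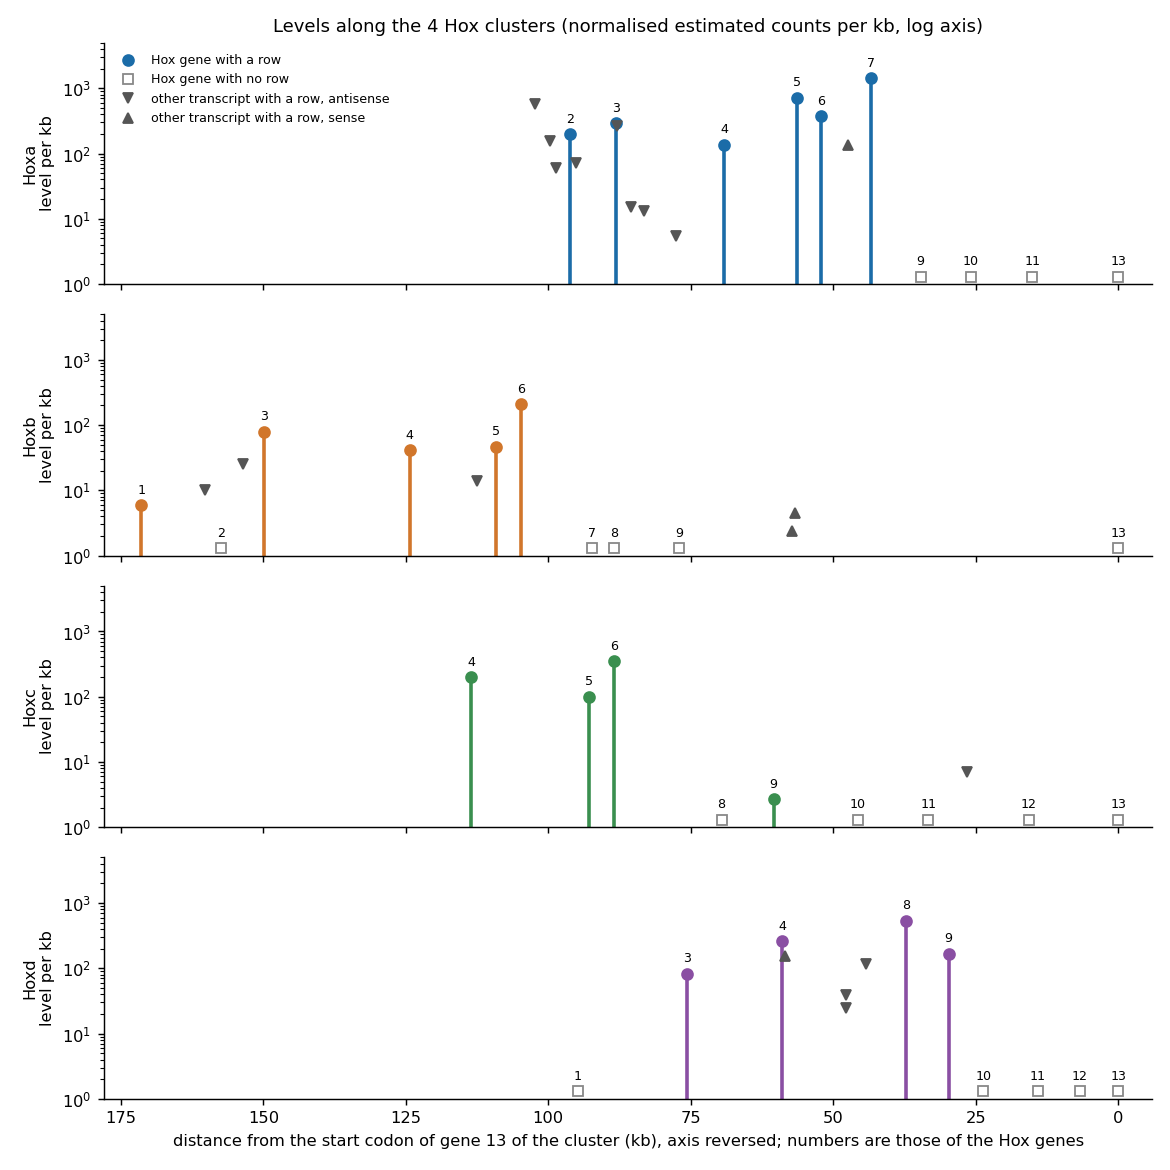
Level per kb (y axis, log) against distance from the start codon of gene 13 of the cluster (x axis, kb, reversed so that low numbers are at the left), with a panel for each cluster. Coloured points are detected Hox genes with their numbers, open squares at the bottom are Hox genes with no row, and grey triangles are other transcripts with a row (downward when antisense to the Hox genes), drawn at their 5′ end. The highest Hox levels stand just before the undetected stretch in Hoxa (*Hoxa7*, 1425 per kb) and Hoxb (*Hoxb6*, 209 per kb).

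The 19 genes with no row were *Hoxa9*, *Hoxa10*, *Hoxa11* and *Hoxa13*; *Hoxb2*, *Hoxb7*, *Hoxb8*, *Hoxb9* and *Hoxb13*; *Hoxc8*, *Hoxc10*, *Hoxc11*, *Hoxc12* and *Hoxc13*; and *Hoxd1*, *Hoxd10*, *Hoxd11*, *Hoxd12* and *Hoxd13*. Among them are the paralogues with the most distal roles. Genes of number 10 suppress ribs in the lumbar region, those of number 11 pattern the forearm and shank, and those of number 13 pattern the digits and the tail end of the body. On the same strand, 18 of these 19 genes had a transcript with over 80% of its 31-base words in no other gene. The exception, *Hoxd11*, had 78.1%. The limit of 80% was set after the values were seen. The lowest level in the whole table was 1.08 counts. The filter that decided which transcripts received a row is not given in the sources used here, so an absent row means a level below that filter or a transcript outside the index, not an absence of RNA.

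The 4 clusters differed in level more than in the number of genes detected. Hoxa had 7 of 11 genes detected, Hoxb 5 of 10, Hoxc 4 of 9 and Hoxd 4 of 9. Hoxa held 57.2% of the summed level of 10479 counts, Hoxd 22.7%, Hoxc 11.9% and Hoxb 8.10%. The median level per kb of the detected genes was 289 in Hoxa, 214 in Hoxd, 150 in Hoxc and 46.8 in Hoxb. The order of these medians depended on the scale: not divided by length, Hoxd (499 counts) stood above Hoxa (398 counts), and with undetected genes at 0, Hoxb (2.96 per kb) stood above Hoxc and Hoxd (both 0). Genes of a cluster are not replicates of it, so these are descriptions without a test. Between 43.5% and 48.3% of the level of each cluster came from 1 gene, namely *Hoxa7*, *Hoxb6*, *Hoxc6* and *Hoxd8*.

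*Hoxa2*, *Hoxa3*, *Hoxa4*, *Hoxa5*, *Hoxa6* and *Hoxa7* were all detected. *Hoxa7* (chr6:52214498-52217505 for its main transcript), which acts in patterning of the trunk vertebrae, was the highest Hox gene of the cells at 2607 counts or 1425 per kb, with an SD of 0.13 (n = 4). Of its 3 transcripts, the longest stood at 2476 counts and the others at 94.3 and 36.8 counts. *Hoxa5* (chr6:52201754-52204587), needed for formation of the lung and airways, followed at 1351 counts or 720 per kb with an SD of 0.24. The step from *Hoxa7* to *Hoxa5* was 0.98 in log2 of the level per kb, which exceeded the larger SD of both genes. *Hoxa6*, their neighbour, had 325 counts on a transcript of 874 bases and therefore 372 per kb (SD 0.24).

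Lower levels were found towards the 3′ end of Hoxa. *Hoxa3*, which is required for thymus and parathyroid, stood at 748 counts or 289 per kb (SD 0.13). *Hoxa2*, the selector gene of the second pharyngeal arch, stood at 352 counts or 198 per kb (SD 0.18). *Hoxa4* was the lowest at 218 counts or 137 per kb (SD 0.13).

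Hoxb had the lowest summed level of the 4 clusters. *Hoxb6* (chr11:96292476-96301569) was its highest gene at 410 counts or 209 per kb, with an SD of 0.10. *Hoxb3* came next at 232 counts or 78.6 per kb (SD 0.21), with 88.2% of this level on the longer of 2 transcripts. *Hoxb5* and *Hoxb4*, known for roles in enteric neural crest and in blood stem cells respectively, stood at 46.8 and 41.3 per kb, and their difference of 0.18 in log2 was within the larger SD of 0.23. *Hoxb1*, which gives the fourth hindbrain segment its identity, stood at 12.4 counts or 5.92 per kb (SD 0.44). The step from *Hoxb4* down to *Hoxb1* was 2.80 in log2, the largest in the order of 19 genes.

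Hoxc was detected at *Hoxc4*, *Hoxc5* and *Hoxc6* and, barely, at *Hoxc9*. *Hoxc6* (chr15:103009573-103011881) was the highest at 550 counts or 348 per kb and had the smallest SD of the Hox transcripts with at least 100 counts, 0.078. *Hoxc4* stood at 404 counts or 200 per kb (SD 0.23), 72.3% of it on the transcript that encodes the longer protein, and *Hoxc5* at 291 counts or 99.4 per kb (SD 0.13). *Hoxc9*, a gene of the thoracic spinal cord, stood at 2.66 per kb. Its level and that of *Hoxb1* differed by 1.16 in log2, within the SD of *Hoxc9*.

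Hoxd held the only posterior gene with at least 100 counts. *Hoxd9* (chr2:74697727-74700208), which acts in the lumbar region and the proximal limb, stood at 355 counts or 166 per kb (SD 0.19), and it held 98.3% of the summed level of posterior Hox genes. *Hoxd8* (chr2:74704905-74707933 for its main transcript) was the highest of the cluster, after *Hoxa7* and *Hoxa5* in the order of all, at 1141 counts or 532 per kb (SD 0.10), with 80.0% on the longest of 3 transcripts. *Hoxd4* stood at 644 counts or 261 per kb (SD 0.41) and *Hoxd3*, which shapes the first vertebra of the neck, at 241 counts or 82.7 per kb (SD 0.31).

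**Figure D3:**
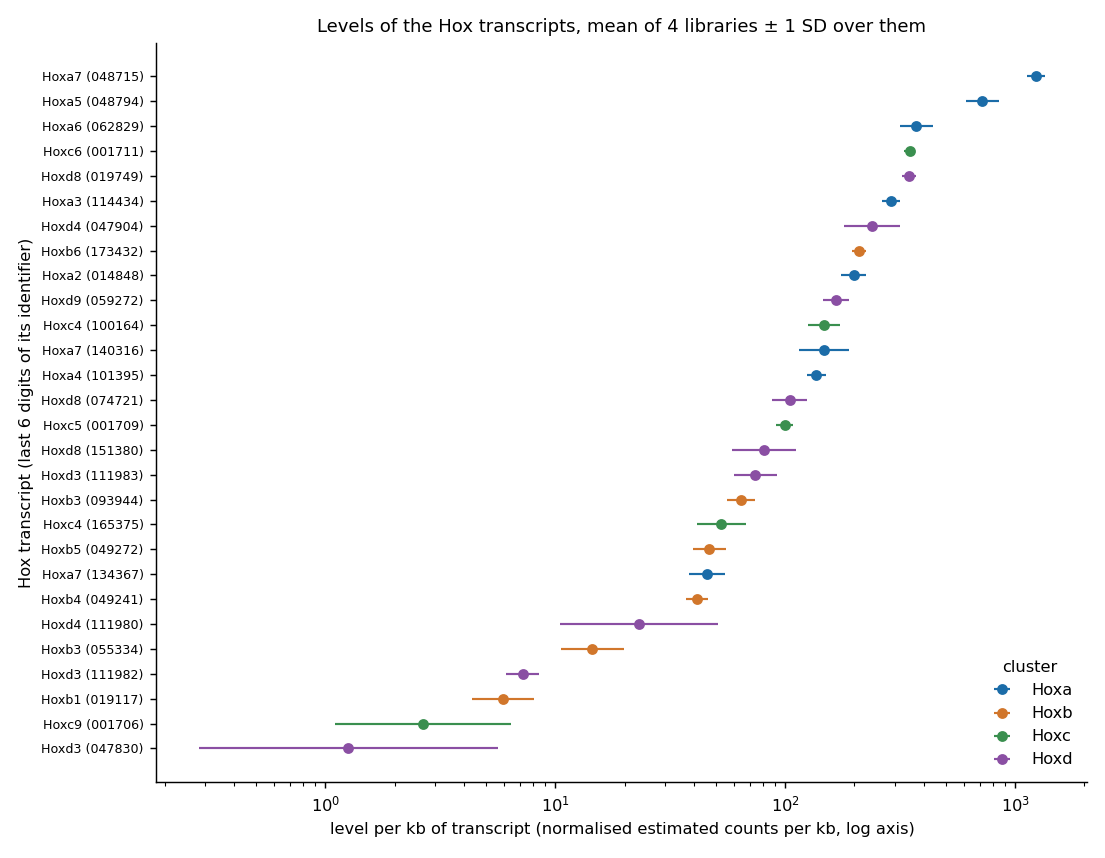
Level per kb (x axis, log) of Hox transcripts (y axis, ordered by level, with the last digits of the identifier). Points are means over the 4 libraries, bars reach 1 SD to each side on the log scale, and colours are clusters. *Hoxa7* stands at 1233 per kb on its main transcript, and the widest bars belong to transcripts of *Hoxd3*, *Hoxd4* and *Hoxc9*.

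Ordered by level per kb, 9 of the 18 steps between neighbours among 19 genes exceeded the larger SD of the pair. The steps that did not were those between *Hoxa6* and *Hoxc6*, from *Hoxa3* through *Hoxd4*, *Hoxb6* and *Hoxc4* to *Hoxa2*, from *Hoxc5* through *Hoxd3* to *Hoxb3*, between *Hoxb5* and *Hoxb4*, and between *Hoxb1* and *Hoxc9*. The genes from *Hoxa3* to *Hoxa2* are thus a group of 5 with steps no larger than that SD. The SD describes the spread of single libraries and is not the error of a mean, so it does not decide which genes differ. Above them stood *Hoxa7*, *Hoxa5* and *Hoxd8*, each followed by a step larger than that SD, and then *Hoxa6* with *Hoxc6*.

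Across paralogues, Hoxa was the highest cluster at numbers 3 and 5 and differed from Hoxc by less than the SD at number 6. At number 3 it stood at 289 per kb against 82.7 for *Hoxd3* and 78.6 for *Hoxb3*, and at number 5 at 720 against 99.4 for *Hoxc5* and 46.8 for *Hoxb5*. At number 6, *Hoxa6* (372) and *Hoxc6* (348) differed by 0.10 in log2, less than the SD of *Hoxa6*. At number 4 the order was *Hoxd4* (261), *Hoxc4* (200), *Hoxa4* (137) and *Hoxb4* (41.3), and the first 2 differed by less than the SD of *Hoxd4*, 0.41. At numbers 2, 7 and 8 only 1 paralogue was detected, namely *Hoxa2*, *Hoxa7* and *Hoxd8*.

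Among the detected genes the level was only weakly related to the number. Spearman's rho between number and level per kb was 0.30 across 20 genes, which share their 4 libraries and are not independent. It was 0.51 across the 19 genes with at least 10 counts, that is, without *Hoxc9*. Within clusters it was 0.75 in Hoxa (7 genes), 0.70 in Hoxb (5 genes), 0.40 in Hoxd (4 genes) and -0.40 in Hoxc (4 genes). With the 19 undetected genes set to 0 it was -0.56 across 39 genes. The sign thus depended on whether undetected genes were included. Summed per number, the level per kb was 450 at number 3, 639 at number 4, 866 at number 5 and 928 at number 6. It was 1425 at number 7, 532 at number 8 and 169 at number 9. These sums rest on unlike numbers of detected genes: 4 at number 4, 3 each at numbers 3, 5 and 6, and 2 at number 9. At numbers 7 and 8 the sum is that of 1 gene, *Hoxa7* and *Hoxd8* respectively.

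The spread of Hox transcripts lay within that of other transcripts. The 20 Hox transcripts with at least 100 counts had a median SD of 0.20 (range 0.078 to 0.41), and the 17484 protein-coding transcripts with at least 100 counts had a median SD of 0.22, with 0.081 and 0.51 as their 10th and 90th percentiles. Per kb, 12 of the 30 Hox transcripts stood above the median of protein-coding transcripts, 137. The deposited values also hold the variance that comes from assigning reads to transcripts. For 12 of the 30 Hox transcripts it was over 0.5 of the variance over libraries. The same share was not computed over all protein-coding transcripts, so the count is not shown to be particular to Hox transcripts. For a low *Hoxd3* transcript the SD from assignment, 0.83, was above the SD over libraries, 0.24.

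On the same strand, sharing of sequence was concentrated at *Hoxd3* and *Hoxd4*. Of the 3 *Hoxd3* transcripts, 25.3%, 7.93% and 3.71% of the 31-base words were in no other gene, and of the 2 *Hoxd4* transcripts 56.6% and 38.5%. Almost all shared words of these 5 transcripts were those of *Gm28230*, a transcript annotated as subject to nonsense-mediated decay that runs from *Hoxd4* into *Hoxd3* on the same strand. *Gm28230* itself was listed at 538 counts or 153 per kb (SD 0.25). The sum of *Hoxd3*, *Hoxd4* and *Gm28230* therefore rests on more unique sequence than its division among them. The table also holds the 2 *Hoxd4* transcripts under different gene identifiers, ENSMUSG00000115956.1 and ENSMUSG00000101174.7, which were summed here.

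**Figure D4:**
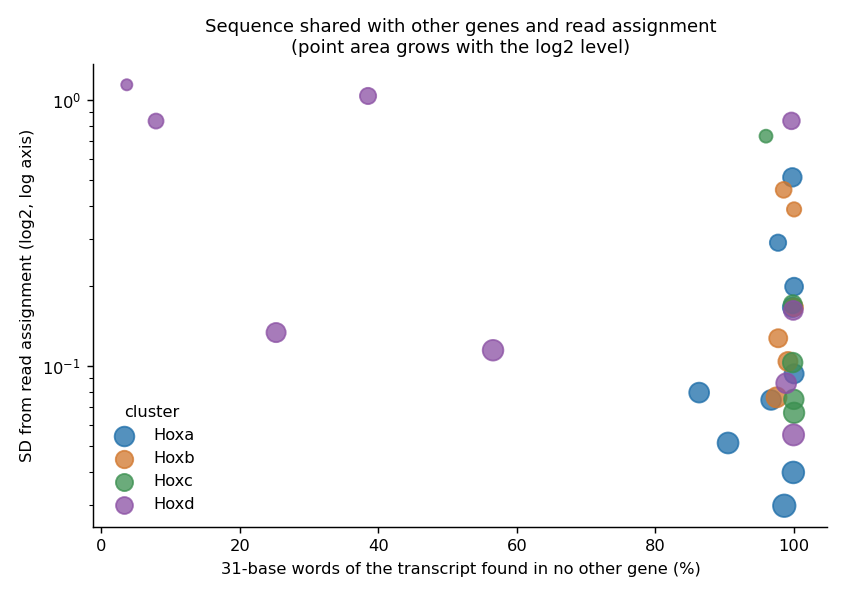
SD from read assignment (y axis, log2 units on a log axis) against the percentage of 31-base words found in no other gene on the same strand (x axis) for the 30 Hox transcripts, coloured by cluster, with point areas that grow with the log2 level. The 5 points under 80%, a limit set after the values were seen, are all *Hoxd3* and *Hoxd4* transcripts. Of these 5, 3 have an SD from assignment between 0.83 and 1.14. A short *Hoxd8* transcript stands at 0.83 with 99.6% of its words in no other gene.

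Antisense transcripts overlapped several Hox genes. The libraries were stranded, but whether strand was used in quantification is not given in the sources used here, so reads of both strands cannot be told apart with certainty. With words of either strand counted, the main and the shorter *Hoxb3* transcript had 30.5% and 49.7% of their words in no other gene. The main *Hoxa7* transcript then had 70.6%, and *Hoxa3* had 76.3%. A transcript of *Hoxb3os* covered 70.5% of the main *Hoxb3* transcript and was listed at 59.6 counts against 205 for that *Hoxb3* transcript. *Hoxaas3* covered 28.8% of the main *Hoxa7* transcript and was listed at 33.0 counts against 2476 for that *Hoxa7* transcript. *Gm29430* covered 16.0% of *Hoxa4* at 11.0 counts, *Hoxaas2* covered 15.1% of *Hoxa3* at 111 counts, and 1 transcript of *Hoxd3os1* covered 11.7% of the main *Hoxd3* transcript at 91.3 counts. On the same strand, *Gm28308* shared 267 bases with *Hoxa2* and 261 bases with *Hoxa3* and was listed at 103 counts.

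Of the 11 annotated genes in a list of noncoding RNAs of the clusters, 8 had a row. *Hotairm1*, transcribed against the Hox genes at the 3′ end of Hoxa and known from myeloid cells, was the highest at 410 counts or 575 per kb (SD 0.24). *Hoxd3os1* followed at 179 per kb. *Hotair*, transcribed between *Hoxc11* and *Hoxc12* and known for binding Polycomb proteins, was listed at 14.2 counts or 7.08 per kb with an SD of 0.90, although neither of its neighbours had a row. *Halr1* stood at 51.2 per kb, and *Hottip*, *Haglr* and *Hoxa11os* had no row. Among antisense transcripts of Hoxa, all that had a row began on the 3′ side of *Hoxa4*.

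MicroRNAs lie inside the clusters too, and their mature sequences are shown because their target sites fall in the highest Hox genes. Mir196 genes lie next to gene 9 of Hoxa, Hoxb and Hoxc, and Mir10 genes lie next to gene 4 of Hoxb and Hoxd. Both families are known to target Hox mRNAs. Mature sequences are from RefSeq (GRCm38.p6), and capitals mark the seed, bases 2 to 8.
miR-196a-5p (Mir196a-1, chr11:96265187-96265208, and Mir196a-2, chr15:102973365-102973386, both plus strand): uAGGUAGUuucauguuguuggg
miR-196b-5p (Mir196b, chr6:52230129-52230150, minus strand): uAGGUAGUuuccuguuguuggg
miR-10a-5p (Mir10a, chr11:96317186-96317208, plus strand): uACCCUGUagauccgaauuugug
miR-10b-5p (Mir10b, chr2:74726074-74726096, plus strand): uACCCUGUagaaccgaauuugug

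The seed match of miR-196, ACTACCT, was searched on the transcript strand in the 3′UTR of the transcript with the highest level of each gene. It was found in 5 of the 20 detected Hox genes, namely *Hoxa4*, *Hoxa5*, *Hoxa7*, *Hoxb1* and *Hoxb6*, and in 906 of 14766 detected protein-coding genes with a 3′UTR searched (6.14%). Among the 19 undetected Hox genes it was found in 3, *Hoxa9*, *Hoxb7* and *Hoxc8*. *Hoxa7*, the highest Hox gene, held 4 of the 12 matches, all within its UTR of 1219 bases. Matches in the genes that lead Hoxa and Hoxb are shown with the bases before them and with the seed match in capitals, on the transcript strand.
Hoxa7 site at UTR base 310 (chr6:52215400-52215422): aggcacagccaaaatACTACCTa
Hoxa7 site at UTR base 347 (chr6:52215363-52215385): gagaggcactcccaaACTACCTa
Hoxa7 site at UTR base 479 (chr6:52215231-52215253): caaaccatgatcaatACTACCTa
Hoxa7 site at UTR base 500 (chr6:52215210-52215232): tactactagccctaaACTACCTa
Hoxa5 site at UTR base 456 (chr6:52202118-52202140): gatatttttattcaaACTACCTa
Hoxb6 site at UTR base 459 (chr11:96301372-96301394): ctggaaggagcacatACTACCTa

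The match shares its last 6 letters with the seed match of let-7, CTACCTC, which was present in full at 1 of the 12 sites, that of *Hoxb1*. The seed match of miR-10, ACAGGGT, was found in 3 of the 20 detected Hox genes, *Hoxa3* and *Hoxb3* among them. It was also found in *Hoxd1* (1 of 19 undetected Hox genes) and in 1985 of the 14766 genes (13.4%). The share among detected Hox genes was thus close to that among the 14766 genes. The hairpins of the Mir196 and Mir10 genes had no row. Libraries of polyadenylated RNA do not measure mature microRNAs, so their presence in the cells was not examined.

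Hox proteins bind DNA together with cofactors of the TALE class of homeodomain proteins, PBX, MEIS and PKNOX (PREP). All 9 genes of the PBX, MEIS and PKNOX families had a row, against 67.3% of all annotated protein-coding genes. Of the 9, 7 had at least 100 counts, as had 17484 of the 26536 protein-coding transcripts with a row. *Pbx2* was the highest at 1095 per kb (SD 0.11). Between 262 and 323 per kb stood *Pbx3*, *Meis1*, *Meis2*, *Meis3* and *Pknox1*, a range that also held *Hoxa3* at 289. *Pbx4* and *Pknox2* were the lowest, with 20.2 and 2.52 counts. The median of the 9 genes was 295 per kb, against 191 for the 20 detected Hox genes.

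Retinoic acid switches on anterior Hox genes in embryos through receptors that bind inside the clusters. Of 14 genes of its pathway, 10 had a row, against 67.3% of all annotated protein-coding genes. Of the 14, 7 had at least 100 counts, as had 17484 of the 26536 protein-coding transcripts with a row. *Crabp1*, which encodes a binding protein for retinoic acid in the cytoplasm, was the highest at 7332 per kb (SD 0.57), and the receptor gene *Rarg* was next at 2637 per kb (SD 0.30). The receptors *Rxrb* (1500 per kb), *Rxra* (773) and *Rara* (668) were also high, while *Rarb* stood at 2.14 per kb with an SD of 2.56. Of the genes for enzymes that make retinoic acid, *Aldh1a3* stood at 102 per kb and *Aldh1a1* and *Aldh1a2* had no row. Of those for enzymes that degrade it, *Cyp26b1* stood at 219 per kb, *Cyp26a1* at 4.55 per kb and *Cyp26c1* had no row.

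**Figure D5:**
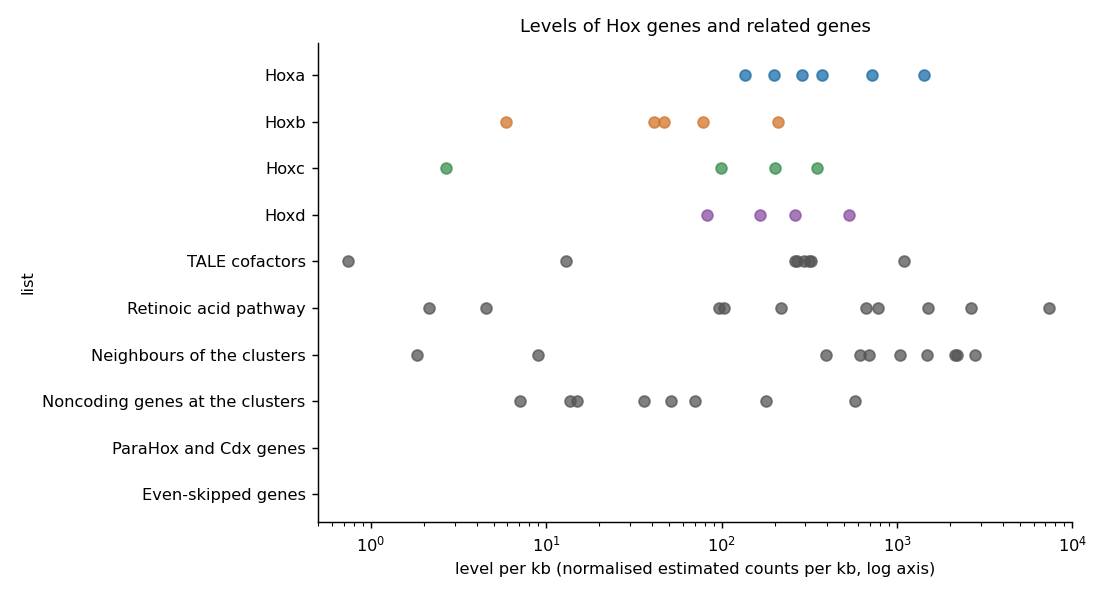
Level per kb (x axis, log) of detected genes in the 4 Hox clusters and in 6 related lists (y axis). Points are genes. No gene of Hoxb stands above 209 per kb, and the ParaHox, Cdx and even-skipped lists have no point.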

How the data were processed

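Polyadenylated RNA was sequenced from 2 KD and 2 WT samples, with the group taken from the *Setd2* label of each. Reads were trimmed with BBDuk, quantified with Kallisto and modelled in Sleuth by the authors, and the labels name GRCm38. For each transcript the authors deposited a mean over the 4 libraries of the natural log of estimated counts, divided by a size factor and increased by 0.5. They also deposited other values on that scale, the variance over the libraries and the variance from read assignment. Other columns, and a gene table, hold the authors' comparison of the groups (effects, standard errors, p-values and q-values) and were not used. Kallisto's index and the low-count filter are not given in the sources used here.

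Levels were computed as the exponential of the mean minus 0.5 and summed per gene. Lengths, positions, 31-base words and the annotated genes came from GENCODE M21, and all 30 Hox transcripts matched with the same version. The protein-coding category of a row is the one given by the authors. Words of other genes, and the other transcripts within the clusters, were taken only from transcripts tagged as basic in the annotation. The SD is the root of the deposited variance divided by the natural log of 2. Calculations used pandas 2.3.3, numpy 2.4.6 and scipy 1.17.1 in Python 3.11.15 and were tested on simulated data. Values are given in full for the 2 highest genes of each cluster and for every gene with at least 100 counts, and for the 2 highest of each other list. Further genes of the lists, and transcripts that overlap Hox genes, were named after their values were seen. The members and lists were chosen with earlier results of these data known. A small number of single-gene values and sequences are not reported here.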

Additional observations from a re-analysis of the deposited data

How the results depend on the processing

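No paired analysis was possible because the values are means over all 4 libraries, and for the same reason leaving out each replicate could not be run. Depth is unknown, so levels near the lowest in the table (*Hoxc9*, *Hoxb1*) are the least certain, and an absent row is not an absence of RNA. The number of detected genes was 20 with transcripts of every category, 19 with at least 10 counts and 17 with at least 100 counts. With at least 100 counts Hoxb had 3 genes in place of 5. The share of the summed level moved by more than its spread per kb of transcript and per kb of length minus 200 bases in Hoxa (61.6% and 62.2%), Hoxb (7.07% and 6.84%) and Hoxd (19.3% and 19.1%), and in Hoxb without the highest gene of each cluster (7.61%). The order of the 4 clusters by share was the same under each of these. Median levels with undetected genes at 0 were 183, 2.96, 0 and 0 per kb in Hoxa, Hoxb, Hoxc and Hoxd, and medians not divided by length were 398, 106, 348 and 499 counts, in which Hoxd and not Hoxa was the highest. The correlation of level with number was reversed with undetected genes at 0 (rho -0.56), rose to 0.51 with at least 10 counts, and was 0.22 without division by length and 0.30 without Hoxa. Of 60 shares of single genes under 3 alternatives, 46 stayed within their spread, and *Hoxa7* had the highest share in each.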

Other observations

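Most genes that flank the clusters and are no Hox genes had a row. Of 11 neighbours, 10 had a row and 8 had at least 100 counts. Over all annotated protein-coding genes 67.3% had a row. Of the 26536 protein-coding transcripts with a row, 17484 had at least 100 counts, though these are single transcripts and not sums per gene. *Cbx5*, which encodes the heterochromatin protein HP1 alpha and lies near *Hoxc4*, was the highest at 2798 per kb (SD 0.03), and *Tax1bp1*, beyond the 5′ side of Hoxa, was next at 2187 per kb (SD 0.08). *Skap2*, beyond the 3′ side of Hoxa, stood at 2129 per kb, and *Mtx2*, which lies beyond *Hoxd1*, stood at 1476 per kb although *Hoxd1* had no row. At Hoxb the neighbours were low, with *Skap1* at 8.96 per kb and *Ttll6* at 1.82 per kb, and *Calcoco2* had no row. The even-skipped genes *Evx1* and *Evx2*, which lie next to *Hoxa13* and *Hoxd13*, had no row, as the genes of number 13 had none.

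The ParaHox and Cdx genes, relatives of the Hox genes outside the clusters, had no row for any of 6 genes (*Gsx1*, *Gsx2*, *Pdx1*, *Cdx1*, *Cdx2* and *Cdx4*).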
